A study of Mus musculus with 6 samples.

Results

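The RNA levels of 9 genes of the telomere-binding complex shelterin and of telomerase were examined in mouse embryonic fibroblasts with and without Zmpste24. The genes were Terf1, Terf2, Terf2ip, Tinf2, Pot1a, Pot1b, Acd, Tert and Dkc1, of 18193 genes that a probe set of the array names alone. Every probe set whose single platform symbol was one of these names was taken, which gave 22 probe sets. Of these, 17 probe sets of 8 genes were bright enough to be tested, and Pot1b was the gene left out. The fibroblasts were C57BL/6, came from E13.5 embryos, and were taken at passage 3 after growth in fetal calf serum, in 3 wild-type (Zmpste24+/+) and 3 Zmpste24-/- cultures. Each culture was measured on 1 Affymetrix Mouse Genome 430 2.0 array, and titles carry a number from 1 to 3 for either genotype. The product of Zmpste24 is the protease that matures prelamin A. The labels do not give the embryos' sex, the deleted part of Zmpste24 or the number of embryos behind a culture, so p-values measure the spread between these cultures.

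Shelterin coats the TTAGGG repeats at chromosome ends and keeps the DNA damage response from reading them as breaks. Terf1 and Terf2 encode TRF1 and TRF2, which bind the double-stranded repeats. Terf2ip encodes RAP1, which rides on TRF2, and Tinf2 encodes TIN2, the hub that joins TRF1 and TRF2 to TPP1. Acd encodes TPP1, which brings POT1 to the single-stranded overhang and recruits telomerase. The mouse has a pair of POT1 genes, Pot1a and Pot1b, where humans have one. Tert encodes the reverse transcriptase of telomerase, and Dkc1 encodes dyskerin, the pseudouridine synthase that stabilises the telomerase RNA and the H/ACA small nucleolar RNAs. Unlike most adult human cells, cultured mouse fibroblasts are known to carry some telomerase.

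Signal is given as the deposited linear intensity of a probe set, and differences are on the scale log2(signal + 16), which understates changes of dim probe sets. Zmpste24 had signals of 3850, 2249 and 2043 in wild-type cultures 1, 2 and 3, and of 365, 182 and 226 in the Zmpste24-/- cultures. The arrays numbered 1 stood apart: their mutual correlation was 0.985, theirs with the remaining arrays ranged from 0.927 to 0.934, and those remaining gave 0.9801 to 0.987 among themselves. All 10 fibroblast markers examined were above the filter on dim probe sets, with summed signals between 113175 and 129505. Xist was 5324 in wild-type culture 1, 69.3 and 43.7 in wild-type cultures 2 and 3, and 4766 to 6669 in the Zmpste24-/- cultures. The Y-linked Eif2s3y had 531 and 1341 in the same wild-type cultures 2 and 3, and no other array exceeded 15.7. By these transcripts sex and genotype cannot be told apart in numbers 2 and 3, whereas number 1 was of like sex in both genotypes.

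Between the genotypes, no shelterin or telomerase gene passed the test. With limma over all 27022 tested probe sets and a Benjamini-Hochberg adjusted p under 0.05, 0 of the 17 member probe sets were called, against 0.00% of all tested probe sets. At an unadjusted p under 0.05 the count was also 0 of 17, against 1.29% of all. With the replicate number as a block 0 of 17 were called, against 0.0185% of all. The unadjusted p was under 0.05 for 1 of them, beside 8.99% of all. In numbers 2 and 3 alone, where sex and genotype cannot be told apart, 0 of 17 were called, beside 0.0740% of all. The ranges of the genotypes overlapped for each of the 17 probe sets, whereas 5.24% of all tested probe sets did not overlap, 2.22% with Zmpste24-/- above and 3.03% with it below. The fit without the block could call little: Zmpste24 itself, at a log2 difference of -3.31, had an adjusted p of 0.987 in it and 4.0e-05 with the block. That 0 members were called without the block therefore does not show that they did not differ, and the intervals with the block are given beside each gene. The median log2 difference (Zmpste24-/- minus wild type) was 0.03 over the 17 probe sets, with 10 higher and 7 lower, beside -0.0048 over all tested probe sets. The sign was the same in the 3 same-numbered pairs for 6 of 17, beside 31.9% of all.

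Among the proteins that bind the double-stranded repeats, Terf1 differed more between cultures than between genotypes. Its brightest probe set (1418380_at) had signals of 164, 441 and 624 in wild-type cultures 1, 2 and 3 and 219, 504 and 524 in the Zmpste24-/- cultures. Both number 1 cultures were low and the genotypes overlapped. The log2 difference was 0.11 (SE 0.54, n = 3 each; with the block SE 0.14 and a 95% interval from -0.22 to 0.44). The dimmer Terf1 probe sets had differences of -0.04 and 0.33, each with an adjusted p of 0.9999 without the block. Terf2 had 1164, 793 and 816 in wild type and 1141, 869 and 810 in Zmpste24-/- on its brightest probe set (1455651_at). Here both number 1 cultures were the high ones. Its log2 difference was 0.03 (SE 0.23; with the block SE 0.089, interval -0.17 to 0.24), and that of the second Terf2 probe set (1421147_at) was -0.0016. The dim Terf2 probe set had a difference of -0.41 (SE 0.35), carried by Zmpste24-/- culture 3 at 14.2 where the other arrays had 42.6 to 61.0.

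The bridging subunits Tinf2 and Acd, and Terf2ip, had small differences between the genotypes. Tinf2 (1451163_at) had 484, 696 and 700 in wild type and 486, 733 and 724 in Zmpste24-/-. The same-numbered pairs differed by 0.0050, 0.07 and 0.05 log2 units. The log2 difference was 0.04 (SE 0.24; with the block SE 0.095, interval -0.18 to 0.26). Acd had 767, 794 and 873 in wild type and 643, 776 and 820 in Zmpste24-/- on its only probe set (1420882_a_at). It was the member with the lower value in every same-numbered pair on its brightest probe set, by -0.25, -0.03 and -0.09. The log2 difference of -0.12 did not pass (SE 0.17; with the block interval -0.34 to 0.10, adjusted p = 0.725). Terf2ip (1426049_a_at) had 340, 259 and 244 in wild type and 334, 224 and 307 in Zmpste24-/-. It differed by 0.03 on the log2 scale (SE 0.23; with the block interval -0.29 to 0.35). A dimmer Terf2ip probe set (1419381_at) differed by 0.05, and the remaining one, at 12.1 on average, was not tested.

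Of the POT1 pair, Pot1a alone was bright enough to be read. Its brightest probe set (1448379_at) was the steadiest of the members, at 454, 476 and 478 in wild type and 475, 479 and 546 in Zmpste24-/-. The genotypes overlapped because wild-type cultures 2 and 3 lay above Zmpste24-/- culture 1, although Zmpste24-/- was the higher one in each same-numbered pair. The log2 difference was 0.09 (SE 0.15; with the block SE 0.105, interval -0.16 to 0.33). The other 3 Pot1a probe sets had mean signals of 19.9, 5.36 and 3.27 and were not tested. Pot1b had 6.56, 7.42 and 4.55 in wild type and 6.84, 6.71 and 8.18 in Zmpste24-/- on its only probe set. These lie under the filter of 39.4, the signal below which the dimmest 40% of probe sets fall, so no level of Pot1b could be compared. The dimmest member probe sets inside the filter were of Tert (40.8), Terf2 (43.4) and Terf1 (48.0), and the brightest outside it was the Pot1a probe set of 19.9.

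Tert was dim and its probe sets disagreed. The brighter one (1456941_at) had 99.6, 52.5 and 52.2 in wild type and 123, 62.6 and 85.8 in Zmpste24-/-, and Zmpste24-/- was the higher in each pair, by 0.27, 0.20 and 0.58. The log2 difference of 0.35 (SE 0.32; with the block SE 0.20, interval -0.12 to 0.81) did not pass, with an adjusted p of 0.637 with the block. The other Tert probe set (1450254_at) had 64.6, 12.5 and 62.4 in wild type and 55.9, 43.3 and 5.86 in Zmpste24-/-. Its pair differences of -0.16, 1.05 and -1.84 had no common sign, and its log2 difference was -0.32 (SE 0.598). With pseudocounts of 1 and 64 in place of 16, the brighter probe set differed by 0.42 and 0.23, in the same direction. Averaging the Tert probe sets gave 0.015, and leaving out 1 array moved the brighter one between 0.14 and 0.60.

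Dkc1, which lies on the X chromosome, had the widest spread between cultures and a small difference between genotypes. Its brightest probe set (1438016_at) had 1032, 3690 and 3922 in wild type and 1073, 4147 and 3752 in Zmpste24-/-. Within a number the genotypes were within 0.17 log2 units of each other, in number 1, of like sex, and in numbers 2 and 3, where Xist differed. The log2 difference was 0.05, with an SE of 0.69 without the block and 0.073 with it (interval -0.11 to 0.22). The second probe set (1441788_s_at) differed by -0.02. The third (1438015_at) was lower in each pair, by -0.24, -0.19 and -0.20, and was the member probe set with an unadjusted p under 0.05 with the block (log2 difference -0.21, adjusted p = 0.541). The brighter Dkc1 probe sets did not share that difference.

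**Figure D1:**
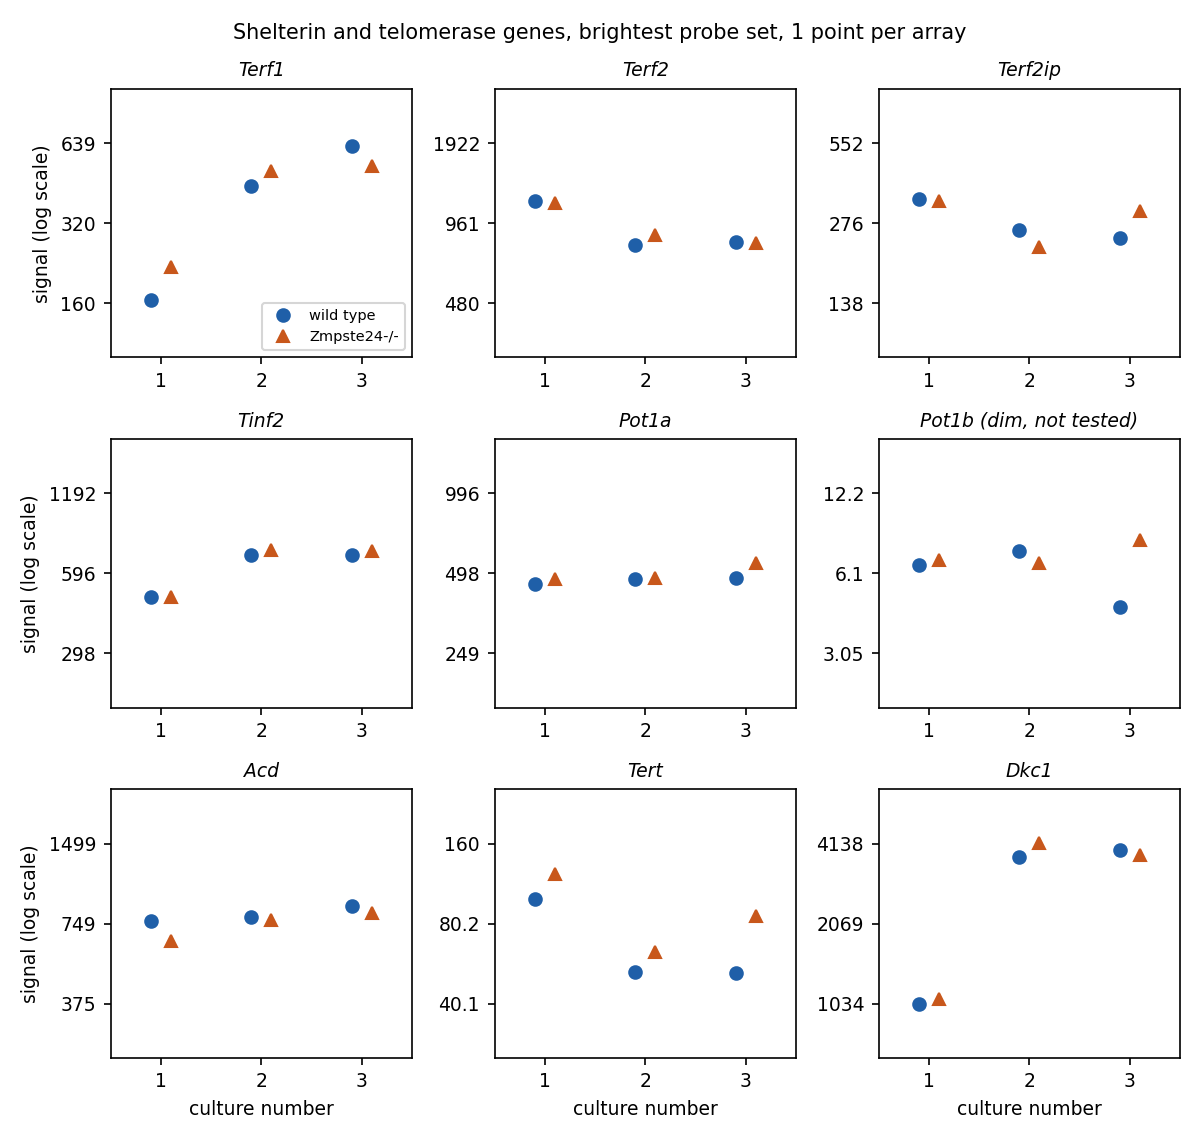
Signal of the brightest probe set of each gene (vertical axis, log scale, each panel spanning the same fold range) against culture number, with 1 point per array: circles for wild type, triangles for Zmpste24-/-. Dkc1, Terf1 and Tinf2 are low and Terf2 and Tert high in number 1 in both genotypes, whereas Pot1a and Acd differ less; Pot1b is under the filter.

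**Figure D2:**
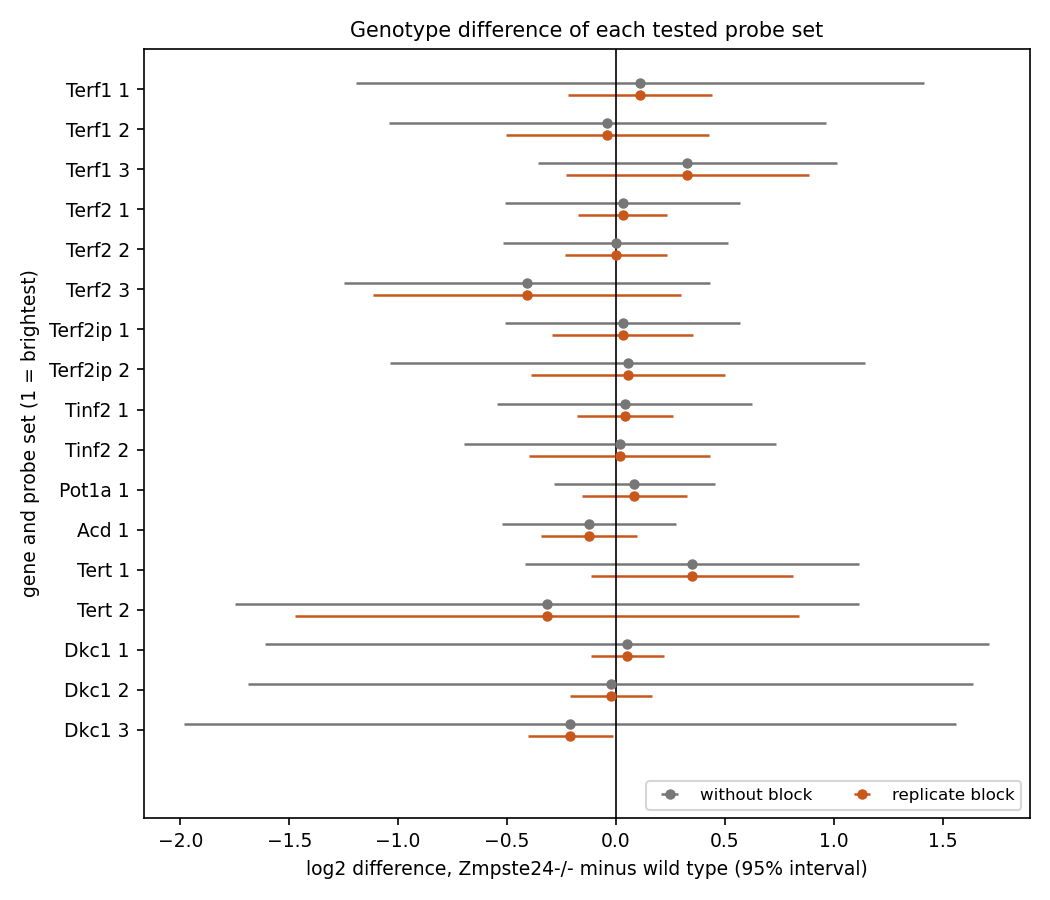
Log2 difference, Zmpste24-/- minus wild type, of the 17 tested probe sets, with its 95% interval from limma without a block (grey) and with the replicate number as a block (orange). The intervals without a block include 0 for each probe set, and with the block the interval of the third Dkc1 probe set alone leaves out 0, before adjustment.

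The cultures' numbers, in contrast, went with large differences in several members. A fit of genotype and culture number over all tested probe sets was read with limma's moderated F test over the 3 numbers. It called 9 of the 17 member probe sets, beside 41.6% of all, and 4 of the 8 genes by their brightest probe set (Terf1, Terf2, Tinf2 and Dkc1), beside 47.0% of all genes. These shares are near the background, so the count says nothing particular about these genes; the direction and size of each are what follows. Number 1 lay below both other numbers in 10 of 17 probe sets (27.2% of all) and above both in 5 (31.2% of all), which makes 15 apart, beside 58.4% of all; 3 of the 10 are of Dkc1 and 3 of Terf1. Number 2 was called against number 1 in 10 of 17, beside 43.5% of all, with 6 higher (19.7% of all) and 4 lower (23.8% of all). Number 3 was called against number 1 in 9, beside 41.2% of all, with 6 higher (19.7% of all) and 3 lower (21.5% of all). Between numbers 2 and 3, 0 of the 17 were called, beside 0.00740% of all. Fewer cells of a kind and less RNA per cell cannot be told apart in such bulk samples, and whatever the number 1 cultures shared (embryos, handling or array run) cannot be told apart from their number.

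Dkc1 had the largest difference of the members between number 1 and the others. Number 2 lay above number 1 by 1.88 log2 units (SE 0.089, adjusted p = 9.4e-06) and number 3 by 1.85 (SE 0.089, adjusted p = 1.1e-05). The other Dkc1 probe sets gave 1.90 and 1.81, and 2.03 and 1.93. On the linear scale the mean of the other cultures was 3.68, 3.71 and 4.07 times that of number 1 for its probe sets in order of brightness. Of all tested probe sets, 234 (0.866%) lay as far or farther above number 1 in both other numbers.

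Terf1 differed in the same direction. It was higher than in number 1 by 1.25 in number 2 (SE 0.18, adjusted p = 7.75e-04) and by 1.52 in number 3 (SE 0.18, adjusted p = 3.2e-04), and 1.93% of all tested probe sets lay as far above number 1. A second Terf1 probe set was higher there as well (0.87 and 1.08, adjusted p = 0.0216 and 0.00899), and the third, dim one had 0.48 and 0.65 and was not called. Tinf2 was higher by 0.54 in both (adjusted p = 0.00625 and 0.00698), with 0.58 and 0.62 on its other probe set, which was not called; the F test's call of Tinf2 was lost without Zmpste24-/- culture 1. Acd and Pot1a had smaller values in the same direction, 0.16 and 0.26 for Acd and 0.04 and 0.13 for Pot1a, and were not called.

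Terf2 had the opposite direction to its partner Terf1. On its brightest probe set it was lower than in number 1 by -0.47 in number 2 and -0.50 in number 3 (SE 0.11 each, adjusted p = 0.00938 and 0.00751). Its second probe set gave -0.39 and -0.45 (adjusted p = 0.0337 and 0.0203). The dim Terf2 probe set had 0.23 and -0.47, without a common sign, and was not called. The F test's call of Terf2 was lost with median centring (adjusted p = 0.0759), with no intensity trend and without wild-type culture 1, and the direction was the same with median centring. Such a difference was common, since 19.5% of all tested probe sets lay as far below number 1 in both. Terf2ip, whose product binds TRF2, had -0.46 and -0.29 on its brightest probe set, which was not called. Its dimmer probe set was lower in numbers 2 and 3, at -1.31 and -0.85 (adjusted p = 0.00277 and 0.0214). Tert was also higher in number 1 on its brighter probe set: number 2 lay lower by -0.79 (adjusted p = 0.0319) and number 3 by -0.61 (adjusted p = 0.0845), and the F test did not call it (adjusted p = 0.067). The dim Tert probe set had -0.89 and -0.88 with SEs of 0.61 and was not called. The brighter Tert probe set and Dkc1, both of genes needed for telomerase, thus had opposite signs, and of Tert the contrast of number 2 alone was called.

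**Figure D3:**
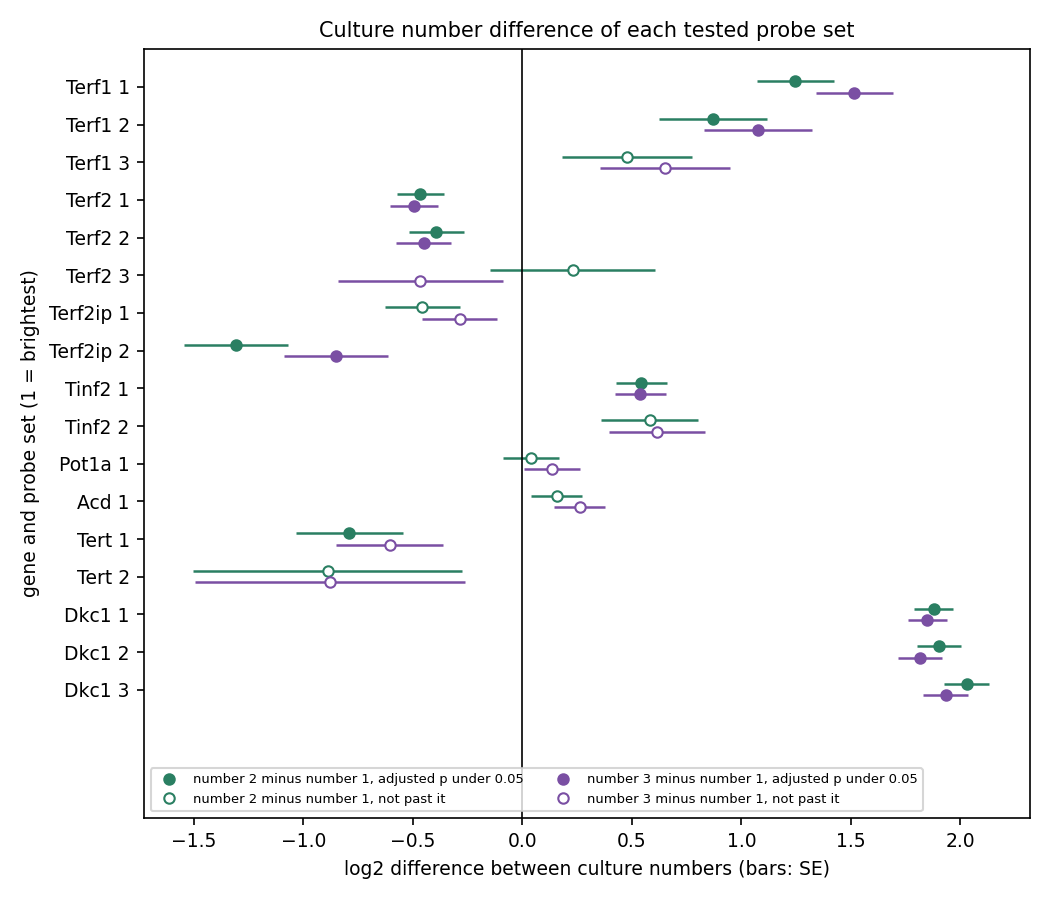
Log2 difference of number 2 (green) and number 3 (purple) from number 1 for the 17 tested probe sets, from the fit of genotype and culture number, with bars of 1 SE and filled points where limma's adjusted p is under 0.05. Dkc1 lies near 1.9 to the right with all 3 probe sets, Terf1 and Tinf2 are to the right, and the brighter Terf2 and both Terf2ip and Tert probe sets are to the left.

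Markers of cycling cells and of macrophages moved with the culture number. All 11 cycling-cell markers with a probe set were lower in number 1 than in the other cultures, beside 3782 of 13038 genes. Their summed signal was 15647 and 15580 in number 1 and 43198 to 49981 elsewhere. All 9 macrophage markers were higher in number 1, beside 4513 of 13038 genes, and none of the 9 was under the filter on its mean. Their summed signals in number 1 were 6872 in wild type and 13106 in Zmpste24-/-, against 1235 to 1945 elsewhere. Of 6 epithelial markers 2 were under the filter, and their summed signal was 546 and 669 in number 1 and 1010 to 1487 elsewhere. The F test called 2 of the 4 tested, Krt18 (2.45 and 2.34) and Krt8 (0.19 and 0.86), beside 47.0% of all genes. Of 6 endothelial markers 3 were under the filter and 1 of the 3 tested, Kdr (0.90 and 0.76), was called, beside the same 47.0%. Their summed signals in number 1, 479 and 814, lay on both sides of the 553 to 646 elsewhere. The calls in the epithelial and endothelial lists were thus near or under the share of all genes. The part of these lists in the differences of Dkc1, Terf1, Tinf2 and Terf2 was not tested. Of the 7 pluripotent and germ cell markers, 6 were under the filter, and their summed signal was 349 and 256 in number 1 and 129 to 188 elsewhere. Between the genotypes the cycling markers had a median log2 difference of 0.05 and the macrophage markers of 0.18, with 0 called in either list. Of the 10 fibroblast markers the F test called 6, beside 47.0% of all genes. Between the genotypes 9 of these 10 were lower in Zmpste24-/-, beside 6644 of 13038 genes, with a median of -0.06 and 0 called.

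The RefSeq table of promoters (build GRCm38.p6, each window running from 250 bases before to 50 after a gene's start) held 10 windows for 8 of the 9 members, Terf1 being the missing entry. The windows of Dkc1 (chrX:75095604-75095903, plus strand), Tinf2 (chr14:55681768-55682067, minus strand), Terf2 (chr8:107096496-107096795, minus strand, 1 of its 2 starts) and Tert (chr13:73626661-73626960, plus strand) are shown because Dkc1 and Tinf2 were low in number 1 and Terf2 and the brighter Tert probe set high. Capitals mark the GC box GGGCGG or its reverse CCGCCC, a letter pattern that Sp1 is known to bind, and the CCAAT box or its reverse ATTGG.
Dkc1: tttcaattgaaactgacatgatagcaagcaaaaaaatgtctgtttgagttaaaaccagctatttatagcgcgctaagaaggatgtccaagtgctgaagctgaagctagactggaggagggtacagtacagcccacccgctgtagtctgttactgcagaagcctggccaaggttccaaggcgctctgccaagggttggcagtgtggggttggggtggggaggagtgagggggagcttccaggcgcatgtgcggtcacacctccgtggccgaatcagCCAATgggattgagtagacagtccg
Tinf2: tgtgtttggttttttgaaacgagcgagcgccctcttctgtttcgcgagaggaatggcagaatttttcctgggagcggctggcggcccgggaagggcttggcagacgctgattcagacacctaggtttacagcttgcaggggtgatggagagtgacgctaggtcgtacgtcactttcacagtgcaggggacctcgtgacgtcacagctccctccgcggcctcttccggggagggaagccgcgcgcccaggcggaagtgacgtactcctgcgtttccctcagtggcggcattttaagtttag
Terf2: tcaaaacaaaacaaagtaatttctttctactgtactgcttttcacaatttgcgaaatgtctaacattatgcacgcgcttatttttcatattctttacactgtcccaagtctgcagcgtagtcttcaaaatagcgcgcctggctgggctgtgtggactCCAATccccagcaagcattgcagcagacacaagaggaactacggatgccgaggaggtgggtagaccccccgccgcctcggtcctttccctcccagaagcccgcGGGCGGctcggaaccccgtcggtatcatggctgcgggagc
Tert: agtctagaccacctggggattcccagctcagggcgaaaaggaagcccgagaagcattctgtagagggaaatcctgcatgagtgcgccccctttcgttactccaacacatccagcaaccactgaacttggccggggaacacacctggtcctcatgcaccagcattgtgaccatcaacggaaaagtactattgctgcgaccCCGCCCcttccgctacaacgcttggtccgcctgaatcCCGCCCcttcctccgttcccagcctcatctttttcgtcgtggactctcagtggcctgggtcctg
The E-box CACGTG, the letters that Myc and Max bind, was searched because Tert and Dkc1 are described as Myc targets. It was in 0 of the 10 windows, and 7.15% of all 32851 windows of 300 bases in the table hold it, which says only that these letters are not in these windows. The Tert window holds 2 GC boxes, the Terf2 window 1 GC box and 1 CCAAT box, the Dkc1 window 1 CCAAT box, and the Tinf2 window none of these. Of all windows, 35.7% hold a GC box and 37.4% a CCAAT box on either strand.

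The proteins that assemble telomerase and the H/ACA particle were not called between genotypes either. Of 15 partners tested, 11 were lower and 4 higher in Zmpste24-/- with a median log2 difference of -0.04 (all genes by brightest probe set, -0.0036), and 0 were called without or with the block. Coil, which encodes the Cajal body protein coilin, had the smallest p, with a difference of -0.30 (SE 0.22, adjusted p = 0.610 with the block). Wild-type culture 1 had 916, where the other arrays had 510 to 609. Smg5, Smn1 and Nhp2 differed by -0.17, -0.15 and -0.10. Across culture numbers, 10 of the 15 were called, beside 47.0% of all genes. Number 2 lay above number 1 by a median of 0.64 and number 3 by 0.61, where the medians of all genes were -0.06 and -0.03. Nhp2 and Gar1, which sit with dyskerin in the H/ACA core, were higher by 1.22 and 0.86 in number 2 and by 1.08 and 0.81 in number 3. Nop10, the remaining core protein, named after its values were seen, had 0.02 and -0.05 and was not called. The ATPases Ruvbl1 and Ruvbl2, which help to assemble the particle, were higher by 0.83 and 1.27 in number 2 and by 0.71 and 1.12 in number 3. Nhp2 had 3933, 8499 and 8574 in wild type and 3538, 8975 and 7259 in Zmpste24-/-, so that both number 1 cultures were low, as for Dkc1.

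The CST complex and the factors of capping and telomere replication gave 0 of 20 called between genotypes (13 higher, 7 lower, median 0.06), and 3 had an unadjusted p under 0.05 with the block, beside 1212 of 13038 genes. These were the helicase Blm at 0.54 (SE 0.86; with the block SE 0.18, adjusted p = 0.484), Rif1, which tempers end resection, at 0.36 (with the block SE 0.12, adjusted p = 0.488), and the helicase Rtel1 at -0.53 (with the block SE 0.18, adjusted p = 0.490). The other Rif1 probe sets differed by -0.0036, -0.28 and 0.08, so its direction is not shared, and the other 3 of Rtel1 by 0.07, -0.24 and 0.10. The Werner helicase Wrn had 171, 158 and 149 in wild type and 202, 185 and 218 in Zmpste24-/-, which do not overlap, and a difference of 0.31 that was not called (adjusted p = 0.578 with the block); its second tested probe set had 0.10. Non-overlap of this direction held for 3 of the 20, Wrn, Tnks2 and Dclre1b, beside 274 of 13038 genes. Tnks2 and Dclre1b were named after their values were seen. With culture number 11 of 20 were called, beside 47.0% of all genes. Blm was higher by 2.19 and 2.37, Tipin by 1.43 and 1.58 and the flap endonuclease Fen1 by 1.44 and 1.15 in numbers 2 and 3. Rtel1 probe sets disagreed. The brightest had 920, 202 and 47.5 in wild type and 591, 191 and 18.3 in Zmpste24-/-. The next had 156, 280 and 314 in wild type and 164, 279 and 348 in Zmpste24-/-. The direction of Rtel1 across numbers is therefore not settled here.

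Among 19 repair and chromatin factors described at telomeres, 9 were higher and 10 lower in Zmpste24-/- (median -0.04), and 0 were called. Their binding in these cells was not measured. Atrx, the chromatin remodeller that deposits histone H3.3 at telomeres, had the smallest p, with 2886, 2099 and 2200 in wild type and 3495, 2332 and 2628 in Zmpste24-/-. Atrx was the higher in each pair, but the groups overlap, and in numbers 2 and 3 sex and genotype cannot be told apart. The Atrx difference of 0.23 did not pass (SE 0.21; with the block SE 0.067, adjusted p = 0.441). The other 6 tested Atrx probe sets ranged from -0.34 to 0.47, 3 of them below 0. Some were higher in each pair, by 0.58, 0.26 and 0.16 and by 0.47, 0.42 and 0.52. The groups of the latter did not overlap, which held in this direction for 2.22% of all tested probe sets. Another was lower in each pair (-0.19, -0.28 and -0.16), so the direction is not shared by all. Nr2c2, Mre11a and Nr2f2 differed by 0.19, 0.27 and -0.29 and were not called, and the other tested probe sets of Nr2c2 ranged from -0.27 to 0.68. Across numbers 8 of 19 were called, beside 47.0% of all genes. Mre11a, a nuclease of the MRN complex, was higher by 1.44 and 1.53 in numbers 2 and 3, its partner Nbn by 0.54 and 0.84 and Ercc1 by 0.73 and 0.51, while Atrx was lower, at -0.52 and -0.40. A dim second Mre11a probe set had -0.01 and 0.11, and 1 of the 3 tested Ercc1 probe sets had -0.0058 and 0.0075; neither was called. Of the Atrx probe sets, 4 of 7 were called.

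Regulators of Tert transcription were not called between genotypes (0 of 11, 6 higher and 5 lower, median 0.02). Max, the partner of Myc, had 1022, 847 and 1662 in wild type and 1345, 989 and 1717 in Zmpste24-/-. It was higher in each pair, and the difference of 0.22 was not called (with the block SE 0.093, adjusted p = 0.554). Mxd1, Mycn and Sp1 differed by 0.20, 0.17 and -0.06 and were not called. The second tested Mycn probe set went the other way, at -0.94 (with the block unadjusted p = 0.0451, adjusted p = 0.552), with pair differences of -1.06, -1.97 and 0.21. Myc had 507, 1401 and 1708 in wild type and 643, 1525 and 1366 in Zmpste24-/-, a genotype difference of 0.04. Across numbers 6 of 11 were called, beside 47.0% of all genes. Myc was higher by 1.33 and 1.40 in numbers 2 and 3 (adjusted p = 3.0e-04 and 2.6e-04), Klf4 by 0.33 and 0.38, and E2f1 was lower, at -0.35 (adjusted p = 0.0441) and -0.47 (adjusted p = 0.0135). The second tested E2f1 probe set had -0.24 and -0.03 and was not called (F test adjusted p = 0.315). Max was called (F test adjusted p = 0.0014) with -0.35 in number 2 and 0.52 in number 3, so it had no common direction against number 1. Myc was thus low in the number 1 cultures, where the brighter Tert probe set was high and Dkc1 low.

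**Figure D4:**
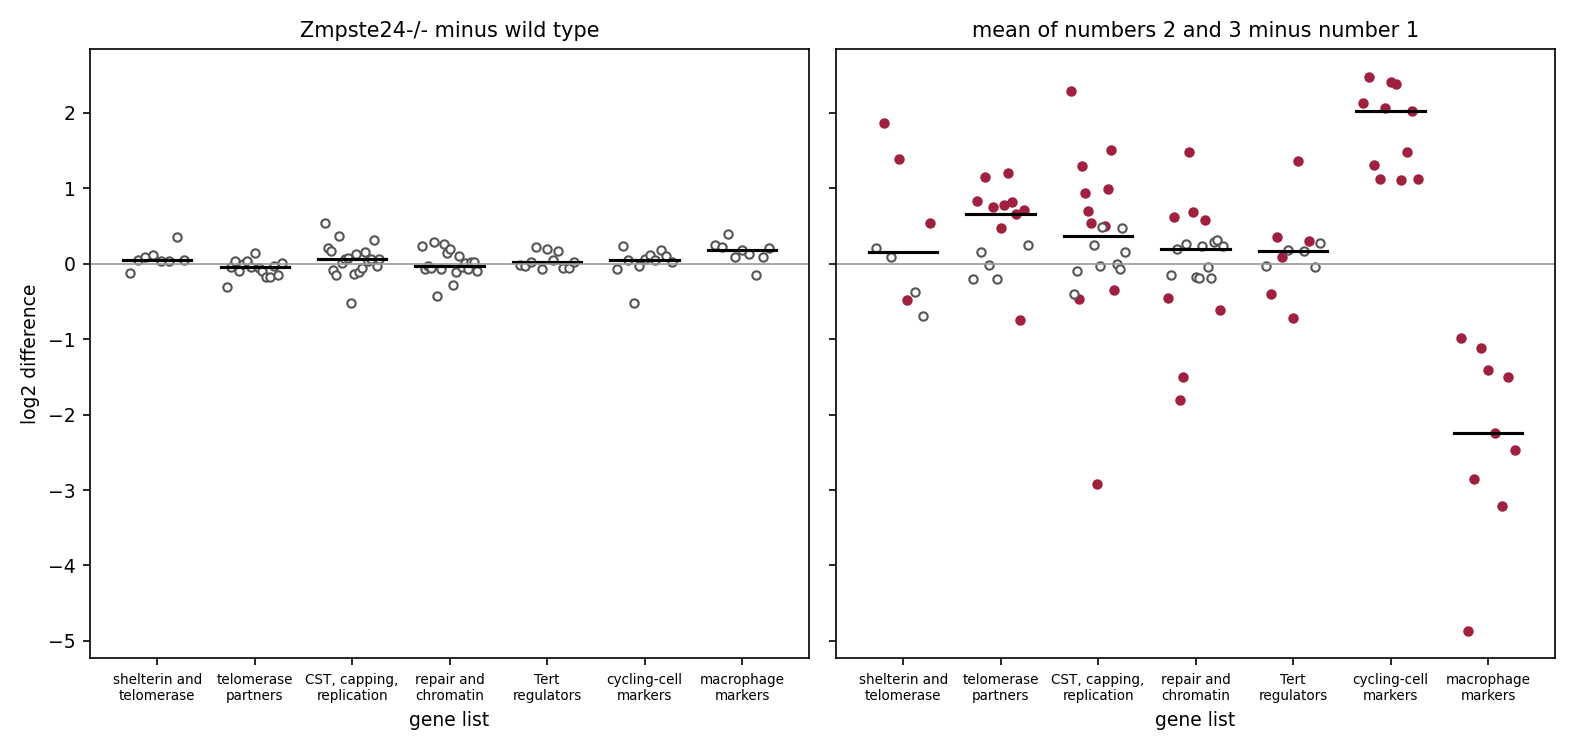
Log2 difference of each tested gene by its brightest probe set, 1 point per gene, with the median of each list as a bar: Zmpste24-/- minus wild type (left, filled where limma with the replicate block has an adjusted p under 0.05) and the mean of numbers 2 and 3 minus number 1 (right, filled where the F test over culture numbers does). No point is filled on the left, while on the right the cycling-cell markers and most telomerase partners lie above 0 and the macrophage markers below it.

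The genes whose levels over the 6 arrays were most like each member were found by the root mean square difference of log2 values, each gene centred on its own mean. For Terf1 these were Myc (0.091) and Upp1 (0.104), where Terf1 itself had an SD of 0.74 over the arrays. For Dkc1 they were Rrm1, the large subunit of ribonucleotide reductase (0.049), and Eif4ebp2, a repressor of cap-dependent translation (0.049), against an SD of 0.96 for Dkc1. Tinf2 was closest to Atp2a2 (0.013) and Usp14 (0.022), Terf2 to Vps33a (0.028) and Tpd52l2 (0.028), Terf2ip to Ints6l (0.032) and Kansl1 (0.041), and Tert to Map3k2 (0.043) and Zfp672 (0.047). Acd was closest to Cdkn2d (0.027) and Sh3bp4 (0.029), and Pot1a to Ddx1 (0.022) and Cbfb (0.023). With 6 arrays in which number 1 stands apart, many genes share such a pattern.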

How the data were processed

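RNA of 6 cultures was hybridised, 1 array each. The deposited values are linear intensity by probe set; the submitters' processing notes name GCOS, and no version or setting of it is used here. Each array had the same mean of 500.0 after 2% was trimmed from each end, so a change in total RNA per cell cannot be seen. Of 45101 probe sets, 64 controls and the dimmest 40% by mean over all arrays (under 39.4) were dropped. Symbols are those of the platform annotation, and 0 changed against a RefSeq table of assembly GRCm38.p6. Precision is limited by having 3 arrays in a group.

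Tests used log2(value + 16) in limma 3.58.1 (R 4.3.3), with the prior variance following intensity and Benjamini-Hochberg adjustment over all tested probe sets (threshold 0.05). Genotype was fitted without a block. Same-numbered cultures deviated together (0.83, 0.59 and 0.57 for numbers 1 to 3, over the limit of 0.1), and the labels speak of pairs; wild-type 3 with Zmpste24-/- 2 gave 0.55 and wild-type 2 with Zmpste24-/- 3 gave 0.49, so that numbers 2 and 3 are hardly told apart by this check and it mostly separates number 1 from the rest. On the labels and this rule, intervals with the replicate block are given too. Culture number was read from a fit of genotype and number. Pairwise contrasts between numbers were added after the data were seen. The scripts' tests were tested on simulated data. Members and gene lists were chosen with earlier results of these data known, as 4 related lists of telomere genes plus cell markers, so a list is described by counts and medians and has no set test. Genes of a list were named if called, or by the smallest p, up to 4 for genotype with the block and up to 4 for culture number. Alternatives were pseudocounts of 1 and 64, no filter or 60%, quantile normalization, median centring, no trend, array weights, the block, numbers 2 and 3 alone, no genotype term, averaged probe sets of a gene, no _x_at or _s_at probe sets, and each array left out in turn. Figures were drawn with matplotlib 3.10.9.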

Additional observations from a re-analysis of the deposited data

How the results depend on the processing

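Without the block, even the difference of Zmpste24 (-3.31) was not called (adjusted p = 0.987), so that fit can miss large differences too. The Tert probe sets were dim, at 79.3 and 40.8 on average, and Pot1b, at 6.71, lay under the filter of 39.4. No member was called between genotypes under any of the 19 alternatives run, with a smallest adjusted p of 0.332 over 151 values; 131 kept their sign and 20 did not. The replicate block changed no call of a member. Over all tested probe sets, 0 were called without a block, 5 with the replicate block and 1 with array weights. Replicates 2 and 3 alone gave 20, and 69 with the replicate block. Sex and genotype cannot be told apart there, and the 4 sex-linked genes tested were called in both of these fits. With an array left out 0 to 4 were called, the 4 without wild-type replicate 1.

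In replicates 2 and 3 alone, with or without the replicate block, Terf1 turned to -0.030. Averaging all probe sets of a gene turned Terf2 to -0.13 and Dkc1 to -0.060 and moved Tert from 0.35 to 0.015. Leaving out an array gives number 1 unequal weight in the genotypes, and moved Terf1 between -0.42 and 0.50, Terf2 between -0.12 and 0.21, Terf2ip between -0.079 and 0.19, Tinf2 between -0.13 and 0.23 and Dkc1 between -0.57 and 0.67. Tert moved between 0.14 and 0.60, Acd between -0.19 and -0.022 and Pot1a between 0.022 and 0.12, with the same sign. None was called there.

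Across culture numbers, 3 to 5 genes were called in the 17 alternatives, and Dkc1 and Terf1 in each. The genes tested were 8, except for 9 with no filter and 7 with the filter of 60%. Median centring raised number 2 against number 1 by 0.16 and number 3 by 0.06 and ended the call of Terf2 (adjusted p = 0.0759), whose differences stayed negative at -0.31 and -0.44. The Terf2 call was also lost with no intensity trend, where Tert was called, and without wild-type replicate 1, and the Tinf2 call without Zmpste24-/- replicate 1. Averaging the probe sets of a gene added Terf2ip.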
